A study of Mus musculus with 45 samples.

Results

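The comparison set epididymal fat against liver of C57Bl/6 (B6) mice on a low-fat diet. Its members were the arrays whose sample names carry the label for low-fat B6 mice in these tissues, 8 of the 45 arrays of the series, 4 of epididymal fat (numbered 1, 3, 4 and 5) and 4 of liver (numbered 1 to 4). The series covered 3 tissues, 2 inbred strains (B6 and 129S6/SvEvTac, written 129S6) and 2 diets. The mice were 6 months old, and both groups were untreated apart from the diet and carried no stated genetic change. Each array carried biotin-labelled cRNA from 25 µg of RNA pooled from 2 to 3 mice, so the spread between arrays is a spread between pools, and no label says whether pools shared animals. The study's text gives 1 diet composition (carbohydrate 57%, protein 22% and fat 21% of energy) without saying whether it was the low-fat one. For reference the text also uses 3 muscle arrays of low-fat B6 mice, and the fat and liver arrays of high-fat B6 mice (4 and 4), low-fat 129S6 mice (3 and 4) and high-fat 129S6 mice (3 and 4).

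White fat of the epididymal pad stores triglyceride in a single large droplet per adipocyte, takes fatty acids up after lipoprotein lipase has released them, gives them back by lipolysis and secretes hormones such as leptin and adiponectin. Its adipocytes sit in a collagen-rich matrix with fibroblasts, capillaries, mesothelium and immune cells. Liver is built mostly of hepatocytes, which secrete the bulk of the plasma proteins, make bile acids, urea and glucose, assemble lipoproteins and modify drugs with cytochromes P450 and conjugating enzymes.

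The promoters of 4 genes that stand for these roles are shown because their transcripts mark the ends of the comparison: leptin (Lep) and adiponectin (Adipoq) for fat, albumin (Alb) and liver fatty acid binding protein (Fabp1) for liver. Each line gives the 200 bases before the annotated start, 5′ to 3′ on the strand of the gene, from RefSeq on GRCm38.p6. Capitals mark matches on either strand to any of 4 motifs searched by their letters: the HNF1 half-site GTTAAT, the C/EBP core TTNNGCAA, the nuclear receptor half-site AGGTCA and the TATA box TATAAA.
Lep, chr6:29060021-29060220, plus strand: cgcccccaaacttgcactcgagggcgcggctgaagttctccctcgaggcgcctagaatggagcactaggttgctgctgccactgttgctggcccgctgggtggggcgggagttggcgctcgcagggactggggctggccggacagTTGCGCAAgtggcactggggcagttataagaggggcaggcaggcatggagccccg
Adipoq, chr16:23146336-23146535, plus strand: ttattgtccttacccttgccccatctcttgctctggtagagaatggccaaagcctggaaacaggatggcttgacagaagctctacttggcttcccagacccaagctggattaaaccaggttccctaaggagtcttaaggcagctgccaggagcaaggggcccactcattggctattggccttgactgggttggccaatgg
Alb, chr5:90460670-90460869, plus strand: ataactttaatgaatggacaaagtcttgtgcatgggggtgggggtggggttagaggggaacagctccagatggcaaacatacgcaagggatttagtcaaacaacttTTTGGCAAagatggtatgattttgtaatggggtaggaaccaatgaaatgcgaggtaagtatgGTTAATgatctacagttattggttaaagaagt
Fabp1, chr6:71199679-71199878, plus strand: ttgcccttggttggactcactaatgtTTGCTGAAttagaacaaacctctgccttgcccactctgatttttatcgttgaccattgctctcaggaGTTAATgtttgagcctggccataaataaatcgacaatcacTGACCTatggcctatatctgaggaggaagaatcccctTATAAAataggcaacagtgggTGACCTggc
The Lep stretch held a C/EBP core from 55 to 48 bases before the start. The Alb stretch held a C/EBP core from 94 to 87 and an HNF1 half-site from 32 to 27 bases before the start. The Fabp1 stretch held all 4 motifs, with the TATA box from 30 to 25 bases before the start, and in the Adipoq stretch none of these letters were found. The whole windows of the table, from 250 bases before to 50 after a start, were available for 119 of the genes 4-fold or more higher in fat, 256 of those 4-fold or more lower and 6572 of all genes tested. The HNF1 half-site letters stood in 5.04% of the windows of the higher genes, 15.6% of those of the lower genes and 4.88% of all windows tested. The nuclear receptor half-site stood in 6.72%, 23.0% and 12.9% of the same 3 sets, the C/EBP core in 10.9%, 17.6% and 9.22%, and the TATA box in 11.8%, 17.6% and 10.4%. Over all 27025 promoters of the table the shares were 7.20%, 16.0%, 10.8% and 14.2% for the HNF1, nuclear receptor, C/EBP and TATA letters. These are matches of letters, not sites shown to be bound.

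The labelled tissues carried their defining transcripts. Values are log2 RMA levels, and a difference is fat minus liver in log2 units ± SE over 4 and 4 arrays, with limma's p-value adjusted over 8251 genes. Lep, the hormone that reports fat stores, stood at 12.25, 12.17, 11.81 and 12.27 in fat arrays 1, 3, 4 and 5 and at 8.93, 8.92, 8.97 and 8.83 in liver arrays 1 to 4. The fat values lay far above every liver value, a difference of 3.21 ± 0.11 (9.28-fold, adjusted p = 3.05e-10). A second probe set of Lep had means of 12.46 in fat and 8.34 in liver, a difference of 4.11. Alb, the main plasma protein, stood at 5.44, 8.74, 7.91 and 7.99 in fat and at 13.24, 13.27, 13.14 and 13.18 in liver. The liver arrays were close together, while fat array 1 was more than 2 units below the other fat arrays, and the difference was -5.68 ± 0.53 (adjusted p = 2.65e-06). Of 9 adipocyte markers measured, 6 were higher in fat by 4-fold or more and none lower, and of 9 hepatocyte markers 7 were lower by 4-fold or more and none higher. The mean level over the adipocyte markers ran from 9.37 to 9.80 in the fat arrays and from 6.12 to 6.32 in the liver arrays. Over the hepatocyte markers it ran from 6.08 to 6.63 in fat and from 11.04 to 11.20 in liver.

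The fat and the liver arrays belong to separate runs of array numbers, so tissue and array run cannot be told apart. The groups of genes are therefore described by differences of 4-fold or more, and smaller differences are given as values to complete them. Correlations over probe sets ran from 0.974 to 0.990 among the fat arrays, from 0.990 to 0.995 among the liver arrays and from 0.849 to 0.861 between tissues. The Gapdh control probe sets differed between the 3' and the 5' end by 0.01 ± 0.05 in fat and by 1.26 ± 0.44 in liver (SD, n = 4 each). For Actb the 3' to 5' difference was 0.65 ± 0.12 in fat and 1.37 ± 0.15 in liver. The SD over all probe sets was 1.84 ± 0.03 in fat and 1.94 ± 0.03 in liver. Each of these 3 measures separated the groups at p = 0.0286 in a two-sided exact permutation test, which is as low as 4 against 4 can go (adjusted p = 0.0476 over 5 measures); their part in the results was not tested. The array median and lower quartile gave p = 0.171 each in the same exact test.

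Differences between fat and liver ran in both directions, but the genes lower in fat were more numerous and further apart. Of 8251 genes, 162 (1.96%) were higher in fat by 4-fold or more at an adjusted p below 0.05 and 304 (3.68%) were lower, 5.65% in all. Differences of at least 16-fold numbered 28 higher and 109 lower, and of at least 64-fold 3 higher and 22 lower. Without the fold limit 50.6% of genes passed, 2195 higher and 1979 lower, and the 4 fat arrays did not overlap the 4 liver arrays for 47.2% of genes. The differences ran from 7.40 (Adipoq) to -7.19 (Fabp1), with a median of 0.036. The fat and liver arrays did not overlap for 161 of the 162 higher and 303 of the 304 lower genes. In the tissue where it was low, the level lay below the array median of 6.23 for 105 of the higher genes and for 170 of the lower ones. RMA gives no detection calls, so a fold against such a level may understate the difference. Just inside the 4-fold limit were Cd74 (2.016) and Cd24a (2.019) among the higher genes, and just outside were Ebf1 (1.990) and Esyt1 (1.979). On the lower side Hhex (-2.005) and Tob1 (-2.005) lay just inside, and Ero1b (-1.996) and Vkorc1 (-1.993) just outside.

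**Figure D1:**
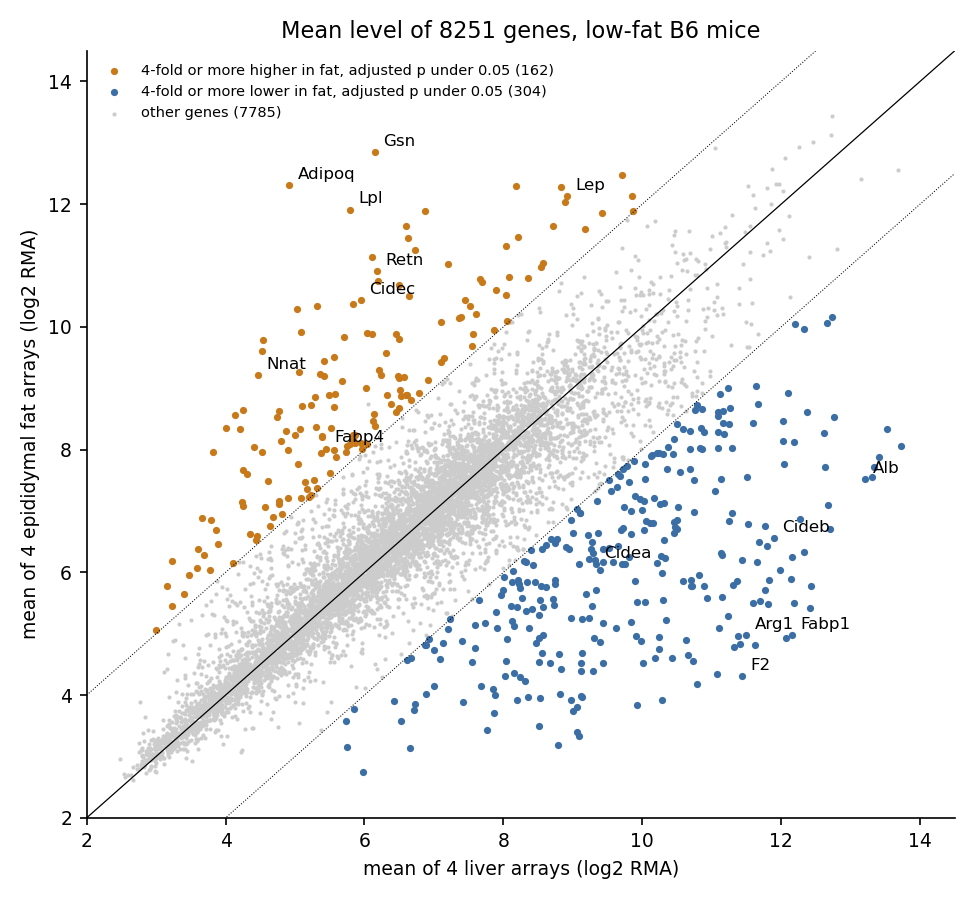
Mean level of each of 8251 genes in 4 epididymal fat arrays (vertical axis, log2 RMA) against 4 liver arrays (horizontal axis, log2 RMA) of low-fat B6 mice, with dotted lines at 4-fold. Orange points are the 162 genes higher in fat and blue points the 304 lower, and the blue cloud lies further from the diagonal than the orange one.

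Adiponectin (Adipoq), a hormone that raises insulin sensitivity, stood at 11.88, 12.27, 12.55 and 12.57 in the fat arrays and at 5.00, 4.93, 4.75 and 4.99 in the liver arrays. No fat value came near a liver value, and the difference of 7.40 ± 0.15 (adjusted p = 4.1e-12) was 169-fold. Resistin (Retn), a hormone of mouse adipocytes, was 10.91 ± 0.25 in fat and 6.17 ± 0.06 in liver (SD, n = 4 each), a difference of 4.73 ± 0.12. Of 16 measured adipokines and other adipocyte secreted proteins, 3 were higher by 4-fold or more (Adipoq, Retn and Lep) and 1 was lower, with a median of 0.10. The lower one was Rbp4, the plasma retinol carrier that liver also secretes (-2.15 ± 0.14). Follistatin-like 1 (Fstl1, 1.87 ± 0.13) and Agt, the angiotensin precursor (-1.94 ± 0.09), passed the test without reaching 4-fold.

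Proteins of the lipid droplet and of caveolae, the flask-shaped membrane pits that adipocytes hold in great number, were well represented among the genes higher in fat. Of 14 measured, 7 were higher by 4-fold or more and 2 lower, with a median of 2.30. The caveolar coat was represented by Cav1 (5.04 ± 0.20), Cavin1 (5.01 ± 0.11), Cavin2 (3.41 ± 0.15) and Cavin3 (5.08 ± 0.18). Cav1 stood at 10.63, 11.04, 11.32 and 11.59 in fat and at 5.95, 5.88, 6.04 and 6.54 in liver, with the lowest fat value more than 4 units above the highest liver value. Dimmer probe sets gave differences of 0.76 for Cavin1 and 0.48 for Cav1, and with probe sets averaged the values were 2.88 and 2.76. The amine oxidase Aoc3 of the adipocyte surface (4.83 ± 0.16) and the droplet coat protein Plin4 (4.56 ± 0.12) also rose. The CIDE family, which joins droplets, split by member. Cidec, the form of white adipocytes, was 10.34, 10.51, 10.24 and 10.64 in fat and 6.23, 6.01, 5.54 and 6.00 in liver, 22.4-fold higher. Cideb, a form of liver that takes part in lipoprotein loading, was 6.76, 6.52, 6.44 and 6.53 in fat and 11.90, 11.85, 11.75 and 12.07 in liver, 40.2-fold lower. Cidea, known from brown fat, was also lower in fat, at 6.14, 5.86, 6.24 and 6.27 against 9.84, 9.42, 8.52 and 9.54 in liver, a difference of -3.20 ± 0.23. The seipin gene Bscl2 (1.19 ± 0.11) and the droplet protein Plin2, which is found in many cell types (-0.61 ± 0.15), passed the test below 4-fold.

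Of the genes past 4-fold, most on the lipolysis list were higher in fat, while most on the list of fatty acid uptake and triglyceride synthesis were lower. Of 13 lipolysis genes 4 rose by 4-fold or more and 1 fell (median 1.13). Npr3, which clears natriuretic peptides, stood at 9.53, 9.81, 9.80 and 10.04 in fat and at 4.50, 4.67, 4.44 and 4.57 in liver, 38.1-fold higher. Other probe sets of Npr3 gave differences of 4.50 and 1.83. The inhibitory G protein Gnai1 (3.56 ± 0.14), hormone-sensitive lipase Lipe (3.30 ± 0.20) and the triglyceride lipase Pnpla2 (2.42 ± 0.12) made up the rest. The glycerol channel of hepatocytes, Aqp9, fell (-3.56 ± 0.23). Of 23 genes of fatty acid uptake and triglyceride synthesis, 2 rose by 4-fold or more and 7 fell, with a median of -0.41. Lipoprotein lipase (Lpl), which frees fatty acids from circulating triglyceride, had levels of 11.53, 11.92, 12.03 and 12.17 in fat and 5.51, 5.77, 5.71 and 6.19 in liver, a gap of 69.5-fold that only Adipoq and Gsn exceeded on this side. The adipocyte fatty acid carrier Fabp4 rose by 2.56 ± 0.15. On the other side stood Fabp1, at 3.99, 5.35, 5.16 and 5.38 in fat and 12.23, 12.12, 12.12 and 12.16 in liver. It was the gene with the lowest difference of all (-7.19 ± 0.25, 146-fold lower, adjusted p = 3.44e-10), and fat array 1 was the lowest of the fat arrays. A dimmer probe set of Fabp1 gave -0.71, and with both averaged its difference was -3.95, no longer the lowest. The hepatic transport proteins Slc27a2 (-5.49 ± 0.11) and Slc27a5 (-4.51 ± 0.09) fell as well.

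**Figure D2:**
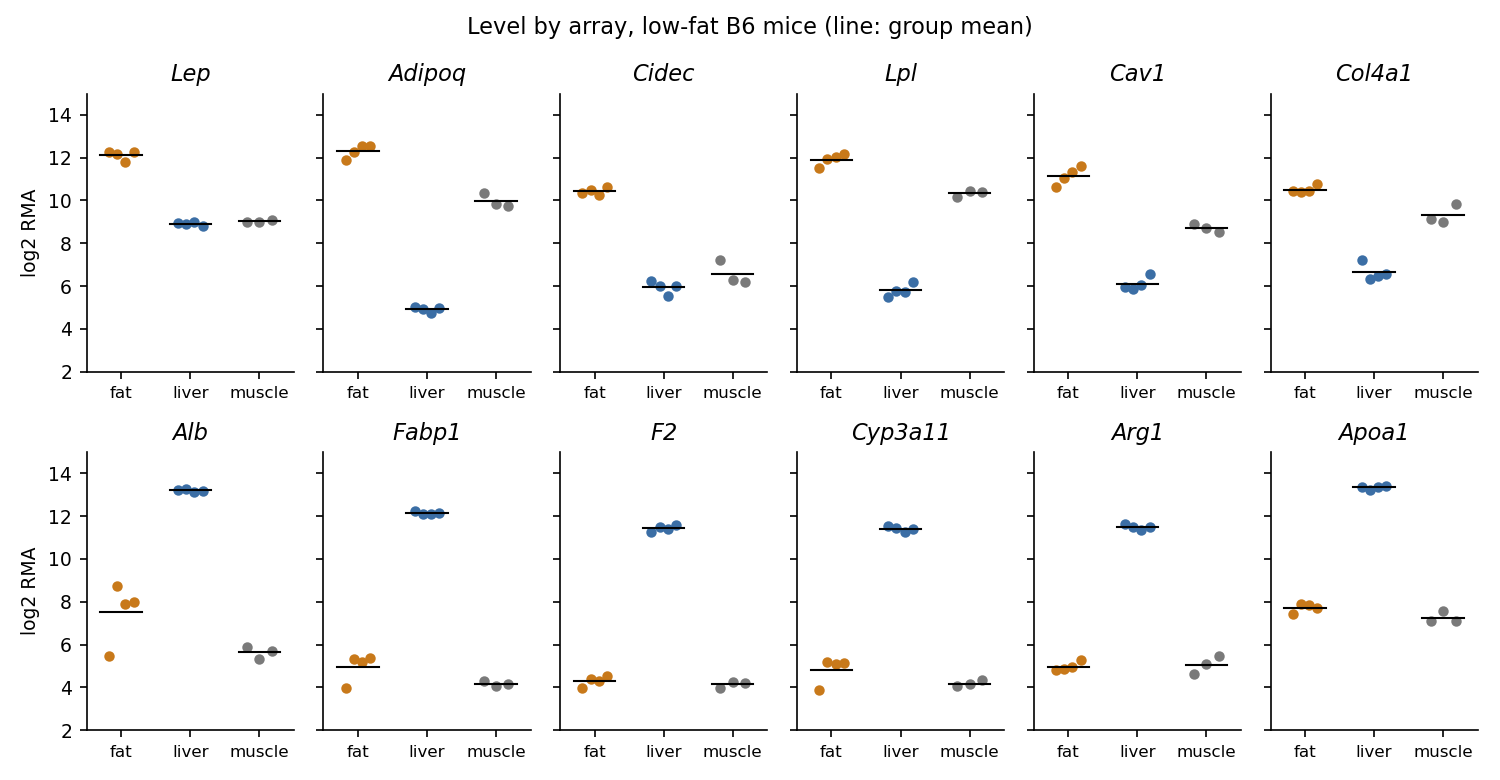
Level of 12 genes in each array of low-fat B6 mice (vertical axes, log2 RMA) in fat (orange, 4 arrays), liver (blue, 4 arrays) and muscle (grey, 3 arrays), with a line at each group mean. The upper genes were higher in fat than in liver and the lower genes lower, and Adipoq, Lpl, Cav1 and Col4a1 stood between fat and liver in muscle.

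Fat synthesis genes did not divide the tissues in the way uptake genes did. Of 16 measured, 1 rose and 1 fell by 4-fold or more, with a median of -0.20. The desaturase Scd2 was 9.90 ± 0.28 in fat and 6.03 ± 0.05 in liver (3.87 ± 0.13). A second probe set of Scd2 gave 1.70, below 4-fold. The elongase Elovl5 was 8.62 ± 0.17 in fat and 11.17 ± 0.40 in liver (-2.54 ± 0.18). Fatty acid synthase (Fasn), which makes palmitate, was 11.34 ± 0.44 in fat and 10.42 ± 0.31 in liver, and its difference of 0.92 ± 0.21 passed the test (adjusted p = 0.00341) below 4-fold. The ATP citrate lyase gene Acly differed by -0.05 ± 0.13 (adjusted p = 0.769). These values hold for B6 on this diet; those of 129S6 are given further on.

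Matrix and scaffold genes gave the largest number of listed genes higher in fat. Of 57 collagen and other extracellular matrix genes, 24 were higher by 4-fold or more and none lower, with a median of 1.27. Sparc, a collagen-binding glycoprotein, stood at 11.19, 11.48, 11.62 and 11.48 in fat and 6.66, 6.58, 6.46 and 6.82 in liver (4.81 ± 0.11). The collagen chaperone Serpinh1 (4.18 ± 0.13), the basement membrane chain Col4a1 (3.87 ± 0.17) and the fibrillar chain Col5a2 (3.85 ± 0.12) followed. The basement membrane also gave Col4a2 (3.05), Nid1 (2.79), Nid2 (2.56), Lama4 (2.31) and Hspg2 (2.09). Collagen VI, which surrounds adipocytes, gave Col6a1 (2.77), Col6a2 (3.09) and Col6a3 (2.60). Col18a1 (-1.79 ± 0.09) and Fn1 (-0.90 ± 0.11), whose plasma form liver secretes, were lower in fat below 4-fold. Of 52 cytoskeleton and adhesion genes, 15 were higher and 3 lower by 4-fold or more (median 1.13). Gelsolin (Gsn), which severs actin filaments, was 12.70, 12.81, 12.73 and 13.18 in fat and 5.98, 5.98, 6.08 and 6.58 in liver, second to Adipoq in size (6.70 ± 0.15). The annexins Anxa1 (5.27 ± 0.10) and Anxa2 (4.11 ± 0.08), the calcium-binding protein S100a6 (5.03 ± 0.12) and the lectin Lgals3 (4.34 ± 0.14) were higher too. The junction genes Gjb2 (-5.30 ± 0.13), Gjb1 (-3.06 ± 0.14) and Cdh2 (-2.95 ± 0.21) of hepatocytes were lower.

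Markers of the other cells that a fat pad holds moved less than adipocyte markers. Of 15 fibroblast and stromal markers, 6 were higher by 4-fold or more, all of them matrix genes or Gsn, while Pdgfra differed by -0.09 ± 0.11 (adjusted p = 0.523). Of 22 macrophage markers, Lyz2, a lysozyme, was 4-fold or more higher (2.99 ± 0.21). Clec4f, a lectin of Kupffer cells, was 4-fold or more lower (-2.12 ± 0.13). Without the fold limit 14 of the 22 passed the test upward and 4 downward (median 0.65), where 2195 and 1979 of all 8251 genes did. Without liver array 4 or fat array 3 the number 4-fold higher was 2, with quantile normalization of these arrays it was 3, and with the probe sets of a gene averaged it was 0 (Lyz2 at 1.68). The class II genes H2-Aa (2.44 ± 0.14) and Cd74 (2.02 ± 0.11), which present antigen, were higher among 9, and 1 of them without liver array 1 or 2 or fat array 1 or 3. The endothelial junction gene Cldn5 (2.34 ± 0.12) was higher among 18 endothelial markers (median 0.66). None of 8 mesothelial, 12 blood or 21 skeletal muscle markers reached 4-fold, except 1 mesothelial marker that did so downward without liver array 1 or fat array 1 or 3. Of 20 lymphocyte markers only Ighm reached 4-fold (3.27 ± 0.16), a call that no gene on the list kept with probe sets averaged (Ighm at 0.56) or specific to 1 gene (0.75). The other 15 Ighm probe sets ran from -0.22 to 3.12. In bulk RNA a smaller number of cells and less RNA per cell cannot be told apart.

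The genes furthest above liver that stood on no list were the selenium enzyme Gpx3 of plasma (5.04 ± 0.11), the imprinted genes Nnat (4.75 ± 0.20) and Mest (4.13 ± 0.25), Crip1 (4.54 ± 0.45), Ahnak (4.53 ± 0.12), the glutamine transporter Slc1a5 (4.20 ± 0.09), Pqlc3 (4.14 ± 0.14), the tetraspanin Cd63 (4.13 ± 0.11), Emp1 (4.02 ± 0.15) and the macrophage elastase Mmp12 (3.87 ± 0.24). All 10 had fat arrays wholly above the liver arrays, as did 161 of the 162 higher genes, so this sets none of them apart. Over all genes the arrays did not overlap for 47.2%. Nnat, whose protein acts on calcium in the endoplasmic reticulum, was 9.15, 9.06, 8.73 and 9.94 in fat and 4.58, 4.37, 4.49 and 4.42 in liver.

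Many plasma proteins made by hepatocytes were lower in fat by 4-fold or more. Of 18 plasma and hormone carriers, 14 were lower in fat by 4-fold or more and none higher, with a median of -4.22. Ambp, the precursor of a protease inhibitor and of a small carrier, stood at 4.56, 5.19, 5.03 and 4.92 in fat and at 12.11, 12.07, 12.09 and 11.99 in liver, 141-fold lower. Apoh, which binds phospholipid (-6.73 ± 0.08), Ahsg, which holds calcium phosphate in solution (-6.25 ± 0.16), and the haem carrier Hpx (-6.16 ± 0.09) followed. Transthyretin (Ttr), the thyroxine carrier, fell by 5.50. Haptoglobin (Hp), which adipocytes also make, went the other way without reaching 4-fold. It was 13.13 ± 0.18 in fat and 12.72 ± 0.21 in liver. Its call was lost in 7 of 20 alternatives, or 6 without the test against 4-fold itself, which this size was bound to fail. Of 15 serine protease inhibitors of plasma, 7 were lower and 1, the collagen chaperone Serpinh1, higher (3 lower with probe sets specific to 1 gene). The α-macroglobulins Mug1 (-6.60 ± 0.13), Mug2 (-6.08 ± 0.13) and Pzp (-6.33 ± 0.09) and the antitrypsin Serpina1b (-5.76 ± 0.31) led them. These families, and the major urinary proteins Mup3 (-5.66 ± 0.43) and Mup5 (-4.35 ± 0.46), have near-identical copies, so a probe set may read several of them.

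Blood clotting factors were low in fat, while tissue factor and a plasminogen activator, which other cells make, were not. Of 31 coagulation and fibrinolysis genes, 17 were lower by 4-fold or more and none higher, with a median of -3.21. Prothrombin (F2) stood at 3.99, 4.39, 4.31 and 4.55 in fat and at 11.24, 11.52, 11.38 and 11.59 in liver, 139-fold lower, and the 3 fibrinogen chains Fgb (-6.36 ± 0.11), Fga (-5.93 ± 0.13) and Fgg (-5.83 ± 0.16) fell together. Antithrombin (Serpinc1, -6.10 ± 0.14) and plasminogen (Plg, 63.9-fold) were lower as well. The plasminogen activator Plat (1.59 ± 0.12) and tissue factor F3 (1.15 ± 0.13) were higher below 4-fold. In the complement list 9 of 23 were lower and none reached 4-fold upward, with a median of -0.76. Cfi, a protease that stops complement (-5.74 ± 0.14), and C8g (-5.11 ± 0.14) were the lowest, whereas C1qa (1.79 ± 0.15) and C1qb (1.67 ± 0.14), which macrophages make, were higher below 4-fold. Of 25 acute-phase and iron genes, 9 were lower and 3 higher. Hepcidin (Hamp), which blocks iron release, had levels of 4.97, 5.12, 5.14 and 5.14 in fat and 11.40, 10.91, 10.88 and 11.21 in liver (-6.01 ± 0.12). The metallothioneins Mt2 (2.70 ± 0.13) and Mt1 (2.48 ± 0.19) were higher in fat. Lcn2 (2.84 ± 0.90) was higher too, but stood at 10.22, 10.45, 5.88 and 6.36 in fat arrays 1, 3, 4 and 5, so that arrays 1 and 3 carried most of the difference. Without array 1 its difference was 2.17 (adjusted p = 0.0526) and without array 3 it was 2.10 (adjusted p = 0.0523).

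Lipoprotein genes split between assembly in liver and handling in both tissues. Of 20, 10 were lower by 4-fold or more and none higher, with a median of -2.18. Apoa1, the main HDL protein, was 7.43, 7.92, 7.84 and 7.71 in fat and 13.37, 13.24, 13.35 and 13.41 in liver (-5.62 ± 0.11), Apob, which wraps VLDL, differed by -5.26 ± 0.13, and the lipid transfer protein Mttp that loads it by -3.23 ± 0.29. Apoa2 differed by -5.41 ± 0.13 with the probe set used and by 0.15 when only probe sets specific to 1 gene were allowed. Apoe was lower by less than 4-fold (-1.13 ± 0.13), and Apod, made in many tissues, was higher (1.55 ± 0.34). Lcat, which esterifies cholesterol in plasma, differed by -0.01 ± 0.10 with the probe set used and by -5.41 when only probe sets specific to 1 gene were allowed.

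Many genes of drug metabolism and related oxidation were lower in fat by 4-fold or more, and no listed member was 4-fold higher. Of 28 cytochrome P450 genes of families 1 to 4 and their reductase, 13 were lower by 4-fold or more and none higher (median -1.83). Cyp3a11, the main drug-oxidising form of mouse liver, was 3.89, 5.19, 5.09 and 5.14 in fat and 11.55, 11.43, 11.25 and 11.41 in liver, 95.9-fold lower. Cyp2d10 (-6.05 ± 0.18), Cyp2d26 (-5.91 ± 0.16) and Cyp3a25 (-5.76 ± 0.13) followed. Cyp1b1, a form of stromal cells, was higher (1.79 ± 0.13). Of 27 conjugating enzymes, 10 were lower, led by the glucuronosyltransferases Ugt2b5 (-6.54 ± 0.13) and Ugt2b34 (-5.05 ± 0.12) and the glutathione transferases Gsta3 (-4.01 ± 0.14) and Gstt1 (-3.24 ± 0.10). Of 27 enzymes of alcohol, aldehyde, ester and flavin oxidation, 14 were lower. Urate oxidase (Uox), which breaks down uric acid, stood at 4.49, 5.10, 4.64 and 5.03 in fat and 11.74, 11.74, 11.39 and 11.64 in liver, 113-fold lower, ahead of the esterase Ces3a (-6.41 ± 0.15) and the retinol dehydrogenase Rdh7 (-5.49 ± 0.12).

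Most genes of the urea cycle and of bile acids, and many of amino acid breakdown, were lower in fat by 4-fold or more. Of 17 bile acid genes 12 were lower by 4-fold or more and none higher (median -2.86). Akr1c6, a hydroxysteroid dehydrogenase of mouse liver, was 5.04, 5.71, 5.34 and 5.57 in fat and 12.13, 12.53, 12.49 and 12.54 in liver (-7.01 ± 0.15), and the bile acid uptake carrier Slc10a1 fell by 72.2-fold (-6.17 ± 0.13). Cyp7a1, the rate-limiting enzyme of the pathway, passed the test below 4-fold (-1.05 ± 0.16). Of 8 urea cycle genes 6 were lower. Arg1, which releases urea, stood at 4.80, 4.86, 4.96 and 5.27 in fat and 11.65, 11.51, 11.36 and 11.47 in liver, Otc differed by -5.59 ± 0.08 and Cps1 by -5.37 ± 0.10. Ass1 was nearly level (-0.30 ± 0.09). Of 47 genes of amino acid breakdown and methyl-group metabolism, 21 were lower and 2 higher (median -1.48). Bhmt (-6.68 ± 0.26) and Gnmt (-6.66 ± 0.10), which pass methyl groups to homocysteine and glycine, and Tat (-5.96 ± 0.13) and Tdo2 (-5.51 ± 0.16), which start the breakdown of tyrosine and tryptophan, led the lower genes. With probe sets averaged Bhmt gave -3.38, and with those specific to 1 gene Tdo2 gave -3.06. The 2 higher genes were Psat1, an enzyme of serine synthesis, at 8.62, 8.61, 8.45 and 8.60 in fat and 4.12, 4.19, 3.98 and 4.26 in liver (4.43 ± 0.09), and the branched-chain aminotransferase Bcat2 (2.16 ± 0.13), which starts the breakdown of leucine, isoleucine and valine outside liver. The subunit Bckdha of the next enzyme on that path was lower below 4-fold (-1.77 ± 0.11).

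The hepatic glucose transporter Slc2a2 (-5.26 ± 0.20) and the glucagon receptor Gcgr (-3.01 ± 0.15) were the only 2 of 19 genes of insulin and glucose handling past 4-fold. Of 16 genes of gluconeogenesis and glycogen, 5 were lower and 1 higher. Fbp1 was 6.33, 6.27, 7.38 and 7.03 in fat and 11.95, 11.70, 11.62 and 11.79 in liver (-5.02 ± 0.22), and G6pc, which frees glucose, fell by 21.3-fold (-4.41 ± 0.12). Pck1 serves glucose output in liver and glycerol synthesis in fat, and was lower in fat at 6.45, 7.98, 7.51 and 7.91 against 9.59, 9.89, 9.71 and 10.05 in liver (-2.35 ± 0.28). The glycogen phosphorylase Pygb was higher (2.12 ± 0.12). Of 17 glycolytic enzymes, Pkm (3.13 ± 0.11) and hexokinase Hk2 (2.32 ± 0.12) were higher by 4-fold or more and none lower. A second probe set of Pkm gave 0.42, and with probe sets averaged neither gene reached 4-fold (Pkm at 1.77, Hk2 at 1.09).

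Of 31 genes of fatty acid oxidation, peroxisomes and ketone bodies, 6 were lower and 2 higher by 4-fold or more (median -1.34). Acaa1b (-3.77 ± 0.10) and Ehhadh (-3.53 ± 0.16) of the peroxisome were the lowest. The higher genes were Abcd2, a peroxisomal carrier of very long fatty acids (3.34 ± 0.18), and Oxct1, which lets tissues other than liver burn ketone bodies, at 8.14, 8.37, 8.42 and 8.44 in fat and 5.06, 5.02, 5.10 and 5.13 in liver (3.26 ± 0.09). Of 63 oxidative phosphorylation subunits 51 passed the test downward, as did 1979 of all 8251 genes, but only Sdha did so by 4-fold (-2.17 ± 0.11), with a median of -0.89. Of 17 cholesterol synthesis genes 4 were lower by 4-fold, led by Ebp (-2.77 ± 0.10) and Msmo1 (-2.49 ± 0.15), and 7 without liver array 3. None of 36 proteasome subunits (median -0.59) and none of 32 cytosolic ribosomal proteins (median 0.16) reached 4-fold in either direction.

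**Figure D3:**
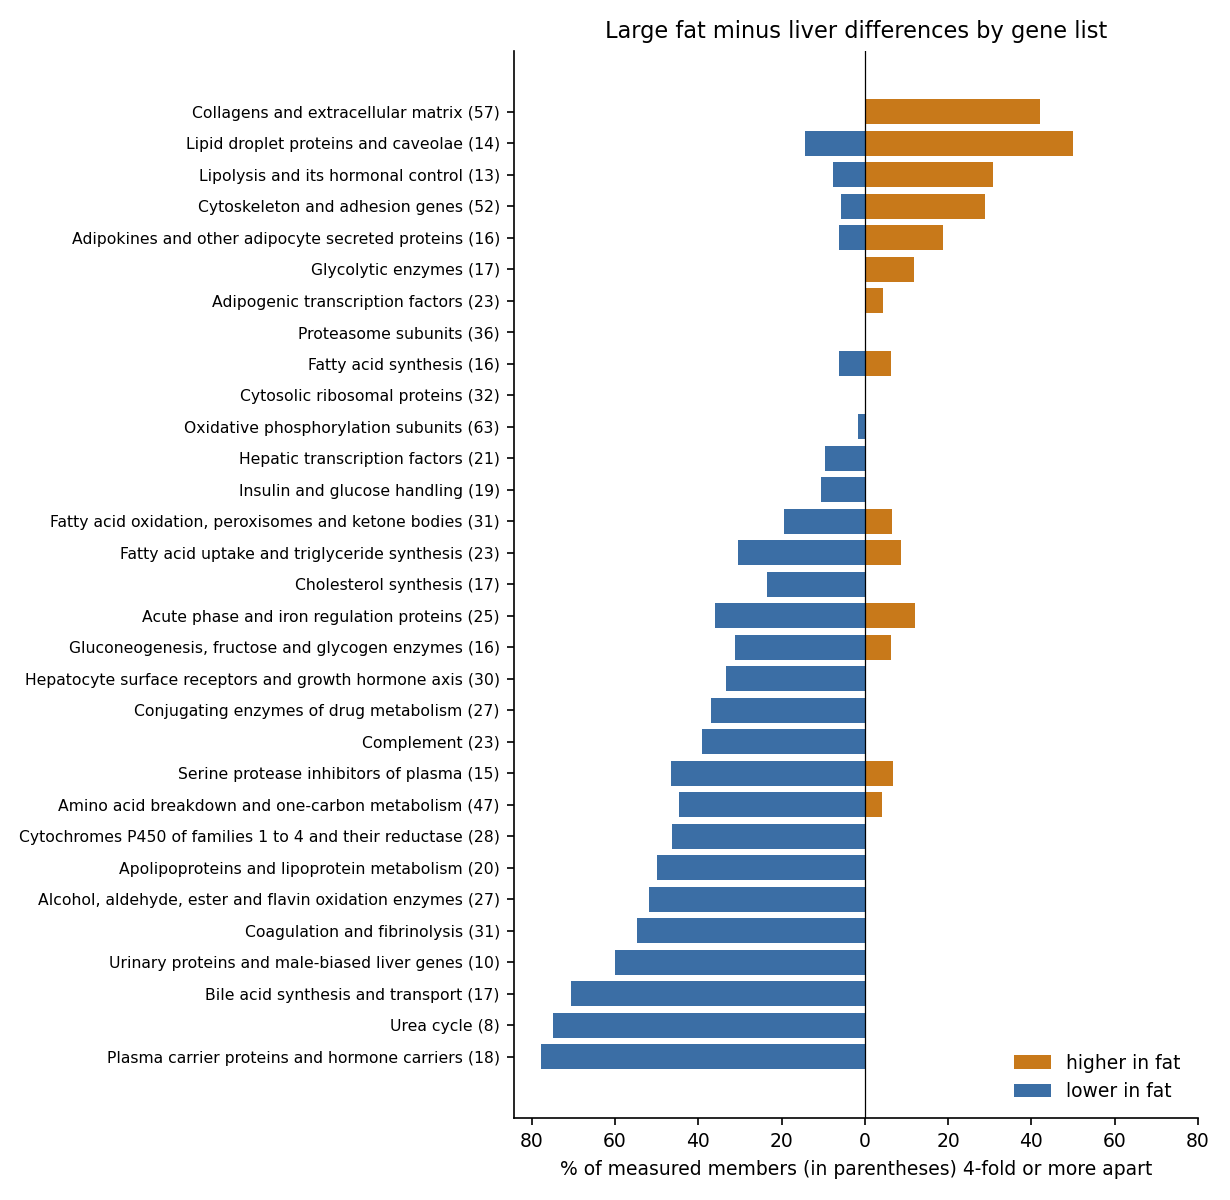
Share of the measured members of 31 gene lists (number measured in parentheses) that were 4-fold or more higher in fat than in liver (orange, right) or lower (blue, left) at an adjusted p below 0.05. Matrix genes (24 of 57) and droplet and caveolar genes (7 of 14) reach furthest to the right, and plasma carriers (14 of 18), urea cycle (6 of 8) and bile acid genes (12 of 17) furthest to the left.

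Cell-surface genes of hepatocytes and genes under growth hormone added 10 genes of 30 that were lower in fat by 4-fold or more, with none higher by as much (8 and 1 with probe sets specific to 1 gene). The asialoglycoprotein receptor Asgr1, which clears plasma glycoproteins, was 4.52 ± 0.21 in fat and 10.00 ± 0.18 in liver (-5.49 ± 0.13). The growth factor binders Igfbp1 (-4.28 ± 0.12) and Igfbp2 (-3.97 ± 0.15) were also low, and with the probe sets of a gene averaged Asgr1 gave -2.68 and Igfbp1 -2.20. Of 10 urinary protein and male-biased genes 6 were lower, among them Hsd3b5 (-5.16 ± 0.27) and Serpina12 (-4.44 ± 0.28). With probe sets specific to 1 gene, 4 on this list were lower and 1 higher by 4-fold or more. The genes furthest below liver on no list were 1300017J02Rik (63.8-fold lower), the class I gene H2-Q10 (-5.99 ± 0.15), the HDL esterase Pon1 (-5.94 ± 0.16), Apof (-5.66 ± 0.11) and Rgn (-5.55 ± 0.10).

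Few transcription factors of either cell type reached 4-fold. Of 23 factors listed for adipocytes, Klf4 alone was 4-fold higher (2.14 ± 0.13) and none was 4-fold lower (median 0.50); without liver array 1 or fat array 1 or 4 the number was 2. With the probe sets of a gene averaged it was 0, and Klf4 differed by 1.14. Pparg, the master factor of adipocytes, was 6.39, 7.12, 6.68 and 7.03 in fat and 4.93, 5.33, 4.42 and 5.48 in liver (1.77 ± 0.22, adjusted p = 4.1e-05), and Cebpa, which both tissues use, was 11.48 ± 0.18 in fat and 11.01 ± 0.14 in liver. Of 21 factors listed for liver, Nr1i3 (-2.72 ± 0.11) and Hhex (-2.01 ± 0.14) were 4-fold lower (median -0.81), Hhex no longer by 4-fold without liver array 1 or 4 or fat array 3 or 5. A second probe set of Nr1i3 gave -0.97. Hnf4a, a master factor of hepatocytes, was 5.99, 5.69, 5.81 and 5.73 in fat and 5.96, 6.08, 6.27 and 6.01 in liver. Its difference of -0.27 ± 0.10 lay on a level below the array median. The call was lost in 13 of 20 alternatives, or 12 without the test against 4-fold itself, which this size was bound to fail. Foxa3 (-1.65 ± 0.15) and Nr5a2 (-1.71 ± 0.10) passed the test below 4-fold.

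Some steps are served by different family members in fat and liver. Of 28 pairs listed, 13 had both members measured, and 2 had the fat member higher and the liver member lower by 4-fold or more, Fabp4 with Fabp1 and the gap junction genes Gja1 (3.49 ± 0.25) with Gjb1. Without the fold limit 8 of the 13 pairs were apart in these directions. Over all 8251 single genes, 2195 passed the test upward and 1979 downward. The insulin-driven glucose transporter Slc2a4 was higher in fat by 1.34 ± 0.13 and Slc2a2 lower. Slc27a1 was higher (0.97 ± 0.12) and the bile acid ligase Slc27a5 lower. Aqp7 (0.74 ± 0.14) and Aqp9 parted in the same way. Arg2 differed by 0.15 ± 0.10 while Arg1 was 92.1-fold lower. Pkm was higher and the liver form Pklr was lower by a small step (-0.62 ± 0.17), which reached -3.66 under another choice of probe set. Pparg was higher while Ppara, the factor of fat burning in liver, gave -1.01 ± 0.39 (adjusted p = 0.0501) and passed in 8 of 20 alternatives. The acyl-CoA synthetases Acsl4 (-0.80 ± 0.19) and Acsl5 (-2.67 ± 0.16) were both lower, and Pfkp (1.58 ± 0.17) and Pfkl (0.86 ± 0.11) both higher.

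**Figure D4:**
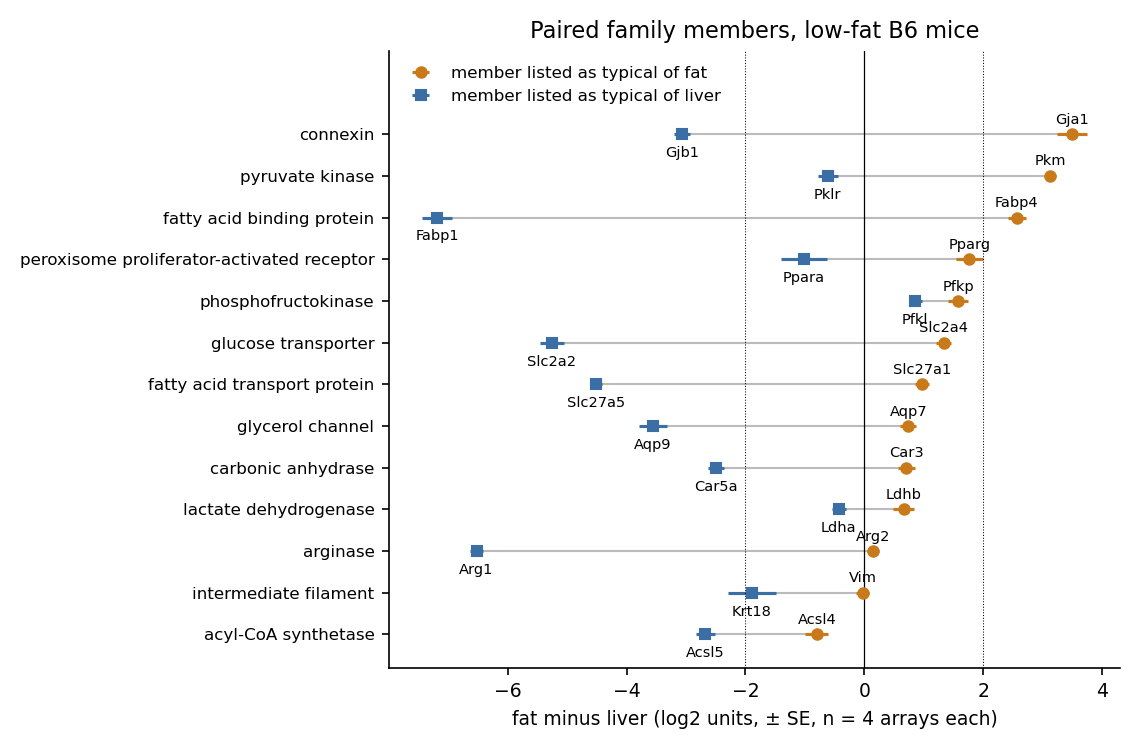
Fat minus liver difference (horizontal axis, log2 units, ± SE, n = 4 arrays each) of 13 pairs of family members, with the member listed for fat as an orange circle and the member listed for liver as a blue square. Only the fatty acid binding proteins and the connexins reach past the dotted 4-fold lines on both sides.

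Muscle of low-fat B6 mice resembled fat in lacking liver transcripts and lay between fat and liver for many fat transcripts. Among the 304 genes lower in fat, the mean of the 3 muscle arrays lay within 1 log2 unit of fat, or below it, for 288, and within 1 unit of liver, or above it, for 8. Among the 162 genes higher in fat, muscle lay within 1 unit of liver, or below it, for 73, within 1 unit of fat, or above it, for 35, and between for 54. Adipoq was 10.34, 9.85 and 9.74 in the muscle arrays and Cidec 7.21, 6.28 and 6.20. Lep, at 9.01, 9.01 and 9.07 in muscle, stood near its liver level. Alb was 5.87, 5.34 and 5.72 in muscle, close to fat array 1 and below the other 3 fat arrays. The part of fat cells in the muscle samples was not tested.

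The fat arrays also carried transcripts of the epididymis and of sperm, and these divided the arrays. Of 18 epididymis and testis markers, 5 were higher than in liver by 4-fold or more and 1, the steroid enzyme Hsd3b6, was lower (-2.88 ± 0.18). Lcn5, a lipocalin secreted by the epididymis, stood at 11.33, 11.84, 7.01 and 4.38 in fat arrays 1, 3, 4 and 5 and at 4.24, 4.21, 4.19 and 4.38 in liver. Adam7 of the same epithelium was 11.42, 11.63, 6.75 and 8.26 in fat and 5.59, 5.56, 5.60 and 5.51 in liver, and Gpx5 was 11.18, 11.62, 6.03 and 6.13 in fat and 5.99, 6.02, 6.21 and 6.01 in liver. These 3 genes were high in fat arrays 1 and 3 and lower in arrays 4 and 5, and Gpx5 did not pass the test (adjusted p = 0.0657).

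Sperm genes ran the other way. The protamine Prm1, which packs sperm DNA, was 8.37, 6.84, 11.29 and 10.27 in fat and 5.40, 5.50, 5.42 and 5.37 in liver, the transition protein Tnp2 was 8.61, 6.76, 11.25 and 10.21 in fat and 6.55, 6.26, 6.13 and 6.02 in liver, and the germ cell lactate dehydrogenase Ldhc was 6.07, 3.52, 9.57 and 8.37 in fat and 3.74, 3.59, 3.57 and 3.72 in liver. They were highest in fat arrays 4 and 5 and lowest in array 3. In the high-fat B6 fat arrays Lcn5 spanned 4.01 to 11.18 and Prm1 8.79 to 10.34. Liver transcripts in fat varied as well, with Mup3 at 6.34, 8.37, 8.72 and 8.81 in fat and 13.65, 13.63, 13.79 and 13.81 in liver and Serpina1c at 7.21, 8.68, 8.62 and 8.81 in fat and 13.47, 13.72, 13.47 and 13.45 in liver, lowest in fat array 1.

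Most of the large differences were also 4-fold with either pair of fat arrays alone. With only fat arrays 1 and 3, 152 of the 162 higher and 294 of the 304 lower genes were still 4-fold apart. With only arrays 4 and 5 the numbers were 153 and 291. These genes had been chosen with the same fat and liver arrays, so most were bound to stay 4-fold apart. Among the genes 4-fold apart from liver, Adam7, Crip1, Lcn2 and Lcn5 were 4-fold higher in arrays 1 and 3 than in 4 and 5, and Ldhc, Prm1 and Tnp2 were 4-fold higher in arrays 4 and 5. The part of epididymal or germ cell RNA in the fat samples was not tested beyond these values.

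**Figure D5:**
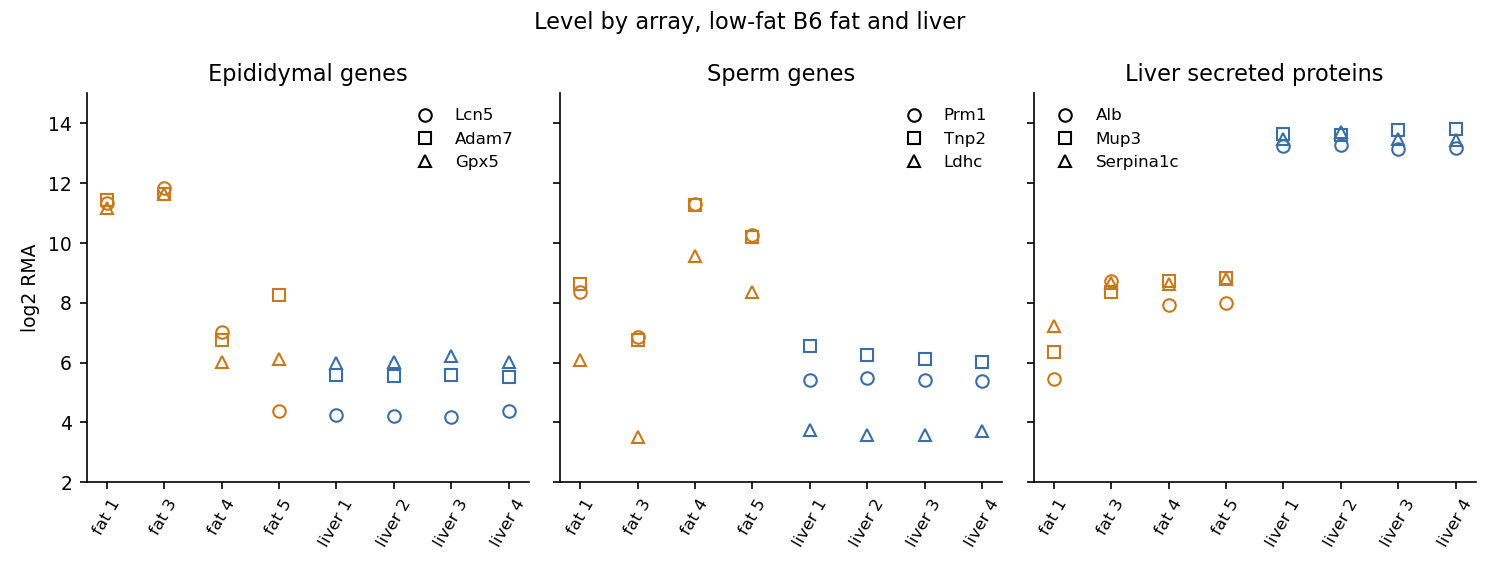
Level (vertical axis, log2 RMA) of 3 epididymal, 3 sperm and 3 liver genes in each fat array (orange) and each liver array (blue) of low-fat B6 mice. Lcn5, Adam7 and Gpx5 are highest in fat arrays 1 and 3, Prm1, Tnp2 and Ldhc in fat arrays 4 and 5, and the liver genes are lowest in fat array 1.

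The same contrast in other mice used other arrays. There too the fat and the liver arrays belong to separate runs of array numbers. Shared genes therefore do not tell tissue from array run. High-fat B6 mice had 176 genes higher in fat (2.13%) and 241 lower (2.92%) by the same rule, 5.05% in all, low-fat 129S6 mice 193 (2.34%) and 242 (2.93%), 5.27% in all, and high-fat 129S6 mice 221 (2.68%) and 259 (3.14%), 5.82% in all. Of the 162 higher genes of low-fat B6 mice, 124 were also on the list of high-fat B6 mice (76.5% of the first list and 70.5% of the second). With low-fat 129S6 mice the overlap was 127 (78.4% and 65.8%) and with high-fat 129S6 mice 117 (72.2% and 52.9%). Of the 304 lower genes 223 were shared with high-fat B6 mice (73.4% and 92.5%), 223 with low-fat 129S6 mice (73.4% and 92.1%) and 217 with high-fat 129S6 mice (71.4% and 83.8%). All 4 comparisons held 92 of the higher and 185 of the lower genes. Adipoq differed by 6.54, 7.35 and 7.36 in high-fat B6, low-fat 129S6 and high-fat 129S6 mice, Lep by 3.54, 2.19 and 2.78, Alb by -5.81, -3.60 and -4.39, and Fabp1 by -6.54, -5.24 and -5.51.

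The tissue difference itself was tested between the strains on the low-fat diet, as the B6 difference minus the 129S6 difference. It passed for 915 genes (11.1%), 229 positive and 686 negative, and beyond 4-fold for 38 (0.461%). With all 12 groups of the series in the fit it passed for 73 positive and 189 negative genes. The genes named here were chosen after their values were seen. Cidea had the lowest value, -5.39 ± 0.31 (adjusted p = 1.5e-08). It was 6.13 in fat and 9.33 in liver of B6 mice, and 8.01 in fat and 5.82 in liver of 129S6 mice, so the order of the tissues was turned. Of the 16 fatty acid synthesis genes 10 passed the strain test with a negative value and none with a positive one (median -1.47), where 686 and 229 of all 8251 genes did. Fasn differed by less than 4-fold in B6 mice, and was 12.49 in fat and 8.45 in liver of 129S6 mice, with a strain difference of -3.12 ± 0.28. Scd1, which desaturates stearate, was 12.93 in fat and 12.26 in liver of B6 mice and 13.74 in fat and 9.85 in liver of 129S6 mice (-3.22 ± 0.34). Thrsp, a regulator of lipogenesis, gave -3.43 ± 0.58. Pck1 was 10.04 in fat and 9.85 in liver of 129S6 mice, against its lower fat value in B6 mice (-2.54 ± 0.35).

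On the positive side stood Mmp12 and the chemokine Ccl2. Mmp12 was 9.23 in fat and 5.36 in liver of B6 mice and 6.08 in fat and 5.58 in liver of 129S6 mice (3.36 ± 0.36, adjusted p = 2.53e-05). Ccl2, which draws in monocytes, was 7.67 in fat and 4.25 in liver of B6 mice and 4.57 in fat and 3.95 in liver of 129S6 mice (2.79 ± 0.27). Lgals3 gave 2.27 ± 0.26. The low-fat liver arrays of the strains belong to separate runs of array numbers, so in liver strain and array run cannot be told apart. The low-fat fat arrays of the strains lie closer in number but do not overlap either. When 1 array was left out, the count of genes past this test ranged from 129 to 457 positive and from 433 to 1092 negative. It was lowest without fat array 9 of 129S6 mice and highest without liver array 11 of 129S6 mice.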

How the data were processed

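Expression was measured on Affymetrix 1-colour arrays. Per the submitters' processing notes, the authors' deposited values are log2 levels made with RMA, which subtracts background, equalises array distributions and summarises probes; no version is stated there. All 45 arrays carried values for 12488 probe sets, from 2.26 to 14.26. Of these 66 were controls, 10833 had 1 gene symbol in the platform annotation, 396 several and 1193 none; 10817 were matched by Entrez ID to the RefSeq gene table. Each of 8251 genes was represented by its brightest probe set over the 8 arrays.

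Fat and liver were compared with limma 3.58.1 in R 4.3.3 on their own 2 groups (lmFit, eBayes, two-sided, Benjamini-Hochberg). A large difference had an adjusted p under 0.05 and at least 2 log2 units (4-fold). The strain test was an interaction term over 4 groups. Gene lists, 45 in all with 1319 names of which 984 were measured, were described by counts and medians. The members and lists were chosen with earlier results of these data known. Named genes are the 15 largest differences each way, up to 4 large members of each list each way, up to 2 others, the markers, the large factors and all pairs; 46 of the 192 genes named with values lie outside this rule and were chosen after their values were seen, as examples of their group. Ttr, also outside the rule, is not among the 192 and was left out of the checks on them. The number of arrays limits the precision. The 3' to 5' and spread measures used exact permutation tests. Figures used matplotlib 3.10.9. In simulated data of 8251 genes, drawn independently from the liver means and SDs, all 114 genes changed by 8-fold or more were recovered, with 0 false large differences. The simulation held no effect of array run and none of the spread between fat arrays. It checks the code and does not measure false large differences in the real arrays.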

Additional observations from a re-analysis of the deposited data

Results flagged for a closer look

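The tissue difference of 59 of the 192 genes named with values differed between B6 and 129S6 mice on the low-fat diet by the interaction test, 44 with a negative and 15 with a positive value (B6 minus 129S6, log2 units, adjusted p of limma below 0.05). Among fat storage genes the values were -5.39 for Cidea, -2.03 for Cidec, -1.36 for Plin4, -1.23 for Lipe, -1.13 for Cideb, -1.04 for Pnpla2, -1.02 for Cavin2, -1.02 for Gnai1, 1.21 for Cavin3 and 0.64 for Npr3. Lipogenic and glucose genes gave -3.43 for Thrsp, -3.22 for Scd1, -3.12 for Fasn, -2.54 for Pck1, -1.59 for Acly, -1.02 for G6pc and -0.86 for Slc2a4. The factors Pparg and Cebpa gave -1.75 and -1.16. Adipocyte hormones and secreted proteins gave -1.59 for Agt, -0.64 for Retn and 1.03 for Lep.

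Plasma proteins of liver gave -3.72 for Fga, -2.41 for Serpina12, -2.28 for Serpina1b, -1.98 for Serpina1c, -1.34 for Hpx, -0.85 for C8g, -0.83 for Apof and -0.75 for Apoa2. In the low-fat fat arrays Alb ran from 5.44 to 8.74 in B6 mice and from 8.77 to 11.12 in 129S6 mice. Mup3 ran from 6.34 to 8.81 in B6 fat and from 9.17 to 11.37 in 129S6 fat. The part of liver transcripts in fat in these strain values was not tested. Liver enzymes, carriers and surface genes gave -1.96 for Gstt1, -1.95 for Fabp1, -1.28 for H2-Q10, -1.15 for Gnmt and -0.68 for Slc27a5. Oxidation genes gave -1.90 for Bckdha, -1.49 for Sdha, -1.31 for Bcat2, -1.31 for Acaa1b and -0.93 for Abcd2. Matrix, cytoskeleton and membrane genes gave -1.36 for Gsn, -0.94 for Lama4, -0.74 for Anxa2, -0.48 for Esyt1, 1.16 for Nid1, 1.14 for Anxa1, 0.76 for Col6a1 and 0.70 for Col6a2. Genes of immune cells gave 3.36 for Mmp12, 2.79 for Ccl2, 2.27 for Lgals3 and 0.89 for Ighm. The remaining values were 1.80 for Mt2, 1.38 for Mt1, 1.28 for Slc1a5, 1.08 for Pqlc3, -1.71 for Nnat, -1.50 for Tob1 and -0.75 for F3.

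In 20 of 384 groups of 4 arrays, 1 array stood far from the other 3 by Dixon's criterion, where chance gives about 5%. Fat array 1 was the lowest for Cyp3a11 (3.89), Fabp1 (3.99), Hamp (4.97) and Serpina1c (7.21). Fat array 3 was the lowest for Fgb (3.78) and Pdgfra (7.39), fat array 4 the highest for Mug2 (4.26) and the lowest for Psat1 (8.45), and fat array 5 the highest for Col4a1 (10.77) and Cyp1b1 (6.93). Liver array 1 was the lowest for Akr1c6 (12.13) and Apof (8.81) and the highest for Aoc3 (5.52). Liver array 2 was the highest for Serpina1c (13.72). Liver array 3 was the lowest for Cdh2 (5.75) and Gja1 (4.97) and the highest for Gpx5 (6.21), and liver array 4 was the highest for Gsn (6.58), Hpx (11.80) and Serpinh1 (6.75).

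Outside the genes tested, 1589 probe sets had no or several gene symbols. Of these 29 were 4-fold or more higher in fat and 32 lower with arrays that did not overlap, from 7.86 to -6.99 log2 units.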

How the results depend on the processing

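The numbers of genes 4-fold apart between fat and liver of low-fat B6 mice (162 higher, 304 lower) stayed within 1.5 times under other probe set rules, filters, scalings, priors and the fit of all 12 groups. A test against 4-fold itself (limma treat) called 98 higher and 230 lower. A limit of 2-fold gave 559 and 695, and 8-fold gave 67 and 177. Leaving out 1 array gave 160 to 170 higher and 293 to 314 lower, against 168 to 196 and 238 to 252 in high-fat B6, 185 to 199 and 237 to 255 in low-fat 129S6, and 209 to 241 and 252 to 288 in high-fat 129S6 mice. After the data were seen, fat arrays 1 and 3 alone were tried (178 and 300), then 4 and 5 alone (173 and 321).

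Deviations of fat and liver arrays with the same replicate number (1, 3 and 4) correlated at 0.001, -0.193 and -0.131. For unlike numbers the correlations ran from -0.168 to 0.269. Such values between 2 tissues cannot tell whether equal numbers mark the same mice. With the number as a block the 6 arrays gave 167 higher and 300 lower, and without the block, tried after the data were seen, 166 and 300. The strain test called 73 positive and 189 negative genes with all 12 groups in the fit, and 129 to 457 and 433 to 1092 with 1 array left out; the cause was not tested. Of 150 named genes 4-fold apart, 149 kept their direction and 131 stayed past 4-fold in all alternatives that held them. Some genes were held by only 18 or 19 of the 20 alternatives. Apoa2 reversed, to 0.15, with probe sets specific to 1 gene. Averaging the probe sets of a gene lowered the size of 17 named differences by more than 1.5 times, 8 of them to under 4-fold; beside those given with their genes these were Slc10a1 (-4.02), Apoa2 (-2.63), C8g (-2.43), Lcn2 (1.52), Lama4 (1.30) and Tob1 (-1.03). RMA gives no detection calls, so signal over background is unknown for dim genes.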
